A study of Mus musculus with 28 samples.

Results

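The nuclear-encoded subunits of the mitochondrial respiratory chain and ATP synthase were followed in mouse bone marrow-derived macrophages, in which T cells killed with ATP/NAD+ had been offered as apoptotic prey. Members were the protein-coding genes whose symbol begins with Ndufa, Ndufb, Ndufc, Ndufs or Ndufv (complex I), Uqcr (complex III), Cox4 to Cox8 (complex IV) or Atp5 (complex V), together with Sdha, Sdhb, Sdhc and Sdhd (complex II) and Cyc1 (complex III). The Ndufaf assembly factors were left out, and a member needed at least 1 TPM (a level corrected for transcript length and library size) in at least 4 of 28 libraries. Of 55487 gene identifiers in each file, 87 protein-coding genes matched the symbols and 81 passed the level rule. They comprised 37 members of complex I, 4 of complex II, 9 of complex III, 14 of complex IV and 17 of complex V. Symbols decided membership, so the set includes Ndufa4, now usually placed in complex IV, Cox7a2l, a factor that joins complexes III and IV into supercomplexes, Ndufab1, which is also the mitochondrial acyl carrier protein, and Atp5s, a little-studied coupling factor.

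Respiratory complexes I to IV pass electrons from NADH and succinate to oxygen, and all but complex II pump protons across the inner mitochondrial membrane. ATP synthase, complex V, lets the protons back and makes ATP. Most subunits are encoded in the nucleus and imported, and a small core is encoded by mitochondrial DNA. Macrophages given interferon-gamma (IFN-γ) are known for a shift towards glycolysis, while interleukin-10 (IL-10) is known to favour oxidative metabolism.

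Poly(A) RNA was sequenced from 7 groups of 4 libraries, all from wild-type macrophages cultured for 48 h. M0 macrophages received no polarising cytokine, and their labels give no uptake status. Macrophages given 50 ng/mL IFN-γ and macrophages given 50 ng/mL IL-10 were each sorted into cells without prey (non-phagocytic), cells that had taken up regulatory T cells (Treg-phagocytic) and cells that had taken up conventional CD4+ T cells (Tconv-phagocytic), recognised by a dye-coupled anti-CD4 antibody. Uptake libraries are named here by the dye in their titles, BV421 or Ax647, and a number. For all 8 Treg-phagocytic libraries the deposited library name gives the other dye, so which dye marked the prey of a single Treg library is uncertain, while its group is the same by both labels. No label places the 4 libraries of a group in separate cultures or animals, so p-values measure the spread between these libraries, which may be technical. In bulk libraries, fewer cells of a type and less RNA per cell cannot be told apart.

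Depth differed between the treatments. Relative depth, estimated from the size of the smallest TPM steps and set against the deepest library, ran from 11.3% to 23.7% under IFN-γ, from 49.2% to 91.7% under IL-10 and from 68.2% to 100% in M0. IFN-γ treatment and low depth cannot be told apart. The summed TPM of 8 macrophage markers was 19878 to 20691 in M0 and 17135 to 17860 in IFN-γ non-phagocytic macrophages. It was 16527 to 18860 in IFN-γ Tconv-phagocytic and 20778 to 21299 in IFN-γ Treg-phagocytic macrophages. Under IL-10 the sums were 17030 to 17318 (non-phagocytic), 17424 to 17797 (Tconv-phagocytic) and 17900 to 18505 (Treg-phagocytic). The 5 IFN-γ response genes summed to 84.0 to 97.8 TPM in M0, 548 to 649 in IFN-γ non-phagocytic, 517 to 748 in IFN-γ Tconv-phagocytic and 201 to 295 in IFN-γ Treg-phagocytic macrophages. The 3 IL-10 response genes summed to 69.3 to 78.7 TPM in M0 and 474 to 503 in IL-10 non-phagocytic macrophages. Their sums were 427 to 463 in IL-10 Tconv-phagocytic and 374 to 393 in IL-10 Treg-phagocytic macrophages.

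Of the 81 members, 79 reached 1 TPM in all 28 libraries. Just inside the rule lay Cox6b2, the testis form of subunit 6b, at 1 TPM or more in 22 libraries, and Cox7a1, the muscle form of subunit 7a, in 26. Just outside lay Cox4i2, the hypoxia-linked form of subunit 4, and Ndufa4l2, each at 1 TPM or more in 1 library. Cox8b, Cox8c, Cox7b2 and a duplicate Atp5o identifier reached it in 0 libraries. These macrophages thus held mainly the ubiquitous isoforms, with 1 exception: Cox6a2, the heart and muscle form of subunit 6a, had a mean of 125 TPM ± 3.59 (SD, n = 4) in M0 against 480 ± 10.2 for the ubiquitous Cox6a1. Reads of Ndufb4 may be shared with the processed pseudogene Ndufb4c, which had a higher mean level over all libraries (75.4 against 44.5 TPM), so values of Ndufb4 are uncertain.

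Promoter windows from RefSeq (GRCm38.p6, 250 bases before to 50 after the annotated start) were matched for 67 of 81 members and searched on both strands for 3 motifs known from respiratory chain promoters: GCGCATGCG (the NRF1 core), CCGGAAG (the ETS core bound by GABP) and AAGATGG (the YY1 core). CCGGAAG and AAGATGG share the letters AAG at their ends and can overlap. GCGCATGCG was found in 8 of the 67 (11.9%), against 4.22% of 9590 tested genes with a window. CCGGAAG was found in 16 (23.9% against 21%) and AAGATGG in 11 (16.4% against 8.6%). At least 1 of them was found for 30 members (44.8% against 30.6%). Over all 27025 genes with a window of the same length the shares were 1.95%, 9.93%, 7.28% and 17.8%. A gene with more than 1 window counted once, with a match in any of them.

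Printed 5′ to 3′, with motif matches in capitals, are the windows of the called members that rose most and fell most under IFN-γ against M0 in each complex, among members with a window. They are Ndufa5, with overlapping windows (chr6:24527477-24527776 on the minus strand, and chr6:24527641-24527940 on the minus strand), and Ndufa10 (chr1:92473709-92474008 on the minus strand) of complex I, Sdhb (chr4:140961021-140961320 on the plus strand) and Sdha (chr13:74350191-74350490 on the minus strand) of complex II, Uqcrh (chr4:116075021-116075320 on the minus strand) and Uqcrc1 (chr9:108936398-108936697 on the plus strand) of complex III, Cox7b (chrX:106015450-106015749 on the plus strand) and Cox5b (chr1:36691237-36691536 on the plus strand) of complex IV, and Atp5e (chr2:174464052-174464351 on the minus strand) and Atp5b (chr10:128083057-128083356 on the plus strand) of complex V.
Ndufa5, first window: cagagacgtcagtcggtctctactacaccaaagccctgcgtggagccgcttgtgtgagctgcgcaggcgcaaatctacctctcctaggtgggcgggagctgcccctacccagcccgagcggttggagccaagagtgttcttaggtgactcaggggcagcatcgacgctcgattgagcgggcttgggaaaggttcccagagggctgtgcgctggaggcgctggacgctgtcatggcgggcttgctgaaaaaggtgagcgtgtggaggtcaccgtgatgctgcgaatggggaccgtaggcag
Ndufa5, second window: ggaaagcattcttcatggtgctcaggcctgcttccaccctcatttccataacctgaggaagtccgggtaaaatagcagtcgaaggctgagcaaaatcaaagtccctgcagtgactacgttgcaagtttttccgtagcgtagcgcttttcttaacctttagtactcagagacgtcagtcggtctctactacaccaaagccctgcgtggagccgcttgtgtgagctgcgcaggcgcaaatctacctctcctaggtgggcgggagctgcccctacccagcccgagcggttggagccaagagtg
Ndufa10: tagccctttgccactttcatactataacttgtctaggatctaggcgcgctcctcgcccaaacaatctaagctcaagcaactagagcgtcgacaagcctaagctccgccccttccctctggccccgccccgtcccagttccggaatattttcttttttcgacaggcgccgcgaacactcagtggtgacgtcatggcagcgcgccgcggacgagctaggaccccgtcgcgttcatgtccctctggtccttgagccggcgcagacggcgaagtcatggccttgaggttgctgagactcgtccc
Sdhb: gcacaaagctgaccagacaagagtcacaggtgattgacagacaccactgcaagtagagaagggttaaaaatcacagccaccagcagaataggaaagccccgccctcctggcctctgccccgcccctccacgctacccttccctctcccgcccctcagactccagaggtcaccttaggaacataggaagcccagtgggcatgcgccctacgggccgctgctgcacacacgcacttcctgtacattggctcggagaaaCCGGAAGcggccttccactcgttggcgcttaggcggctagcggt
Sdha: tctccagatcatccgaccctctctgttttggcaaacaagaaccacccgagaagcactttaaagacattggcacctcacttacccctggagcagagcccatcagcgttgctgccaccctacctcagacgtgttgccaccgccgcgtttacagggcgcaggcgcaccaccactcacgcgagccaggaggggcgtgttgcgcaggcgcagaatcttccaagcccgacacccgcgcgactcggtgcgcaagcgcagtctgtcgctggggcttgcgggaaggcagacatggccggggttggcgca
Uqcrh: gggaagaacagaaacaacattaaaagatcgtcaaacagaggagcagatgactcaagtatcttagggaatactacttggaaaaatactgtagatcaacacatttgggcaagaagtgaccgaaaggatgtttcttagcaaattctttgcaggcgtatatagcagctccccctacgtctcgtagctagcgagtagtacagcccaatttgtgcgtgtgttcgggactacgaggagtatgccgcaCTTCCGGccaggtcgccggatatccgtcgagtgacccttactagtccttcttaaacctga
Uqcrc1: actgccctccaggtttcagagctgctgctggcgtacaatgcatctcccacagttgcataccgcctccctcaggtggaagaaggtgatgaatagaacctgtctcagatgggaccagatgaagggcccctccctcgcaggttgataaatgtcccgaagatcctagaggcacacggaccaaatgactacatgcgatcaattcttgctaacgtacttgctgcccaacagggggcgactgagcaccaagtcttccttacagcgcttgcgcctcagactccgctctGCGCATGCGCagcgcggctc
Cox7b: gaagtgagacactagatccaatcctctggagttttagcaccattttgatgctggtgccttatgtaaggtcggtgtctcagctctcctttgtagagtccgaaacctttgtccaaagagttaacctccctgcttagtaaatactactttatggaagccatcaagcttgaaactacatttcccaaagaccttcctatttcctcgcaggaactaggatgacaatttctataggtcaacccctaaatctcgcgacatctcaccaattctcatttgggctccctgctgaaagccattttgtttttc
Cox5b: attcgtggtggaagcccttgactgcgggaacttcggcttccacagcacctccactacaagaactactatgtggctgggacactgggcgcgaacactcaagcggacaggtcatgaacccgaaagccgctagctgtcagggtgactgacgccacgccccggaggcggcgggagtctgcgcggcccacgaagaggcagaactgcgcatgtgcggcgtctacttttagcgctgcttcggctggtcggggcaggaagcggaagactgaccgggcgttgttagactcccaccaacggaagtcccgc
Atp5e: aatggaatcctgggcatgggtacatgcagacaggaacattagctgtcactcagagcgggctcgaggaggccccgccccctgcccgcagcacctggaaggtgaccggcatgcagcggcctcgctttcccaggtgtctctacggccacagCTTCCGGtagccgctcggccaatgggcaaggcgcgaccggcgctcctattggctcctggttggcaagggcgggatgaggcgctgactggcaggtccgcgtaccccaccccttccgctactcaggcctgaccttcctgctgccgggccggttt
Atp5b: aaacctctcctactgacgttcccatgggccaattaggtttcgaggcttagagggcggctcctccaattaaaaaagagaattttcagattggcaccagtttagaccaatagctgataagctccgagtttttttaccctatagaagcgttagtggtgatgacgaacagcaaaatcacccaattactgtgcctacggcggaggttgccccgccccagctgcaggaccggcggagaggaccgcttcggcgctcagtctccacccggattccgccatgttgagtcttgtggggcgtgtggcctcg
Of the rising members, Sdhb, Uqcrh and Atp5e carried the ETS letters, while no match was found for Ndufa5 and Cox7b. Of the falling members, Uqcrc1 carried a palindromic NRF1 match, while no match was found for Ndufa10, Sdha, Cox5b and Atp5b. Over all members with a window, 25 of 30 with at least 1 motif were higher under IFN-γ and 1 was lower (median log2 fold change 0.57), and 24 of 37 with no motif were higher and 4 lower (median 0.41). Members of both kinds thus mostly rose, and the difference between them was not tested. A match is a description of letters and not of binding.

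Members made up between 1.33% (M0) and 1.89% (IFN-γ Treg-phagocytic) of a group's TPM on average. The summed TPM of all 81 members was 13295 ± 225 (SD, n = 4) in M0, 17309 ± 139 in IFN-γ non-phagocytic, 16978 ± 396 in IFN-γ Tconv-phagocytic and 18890 ± 325 in IFN-γ Treg-phagocytic macrophages. It was 14115 ± 212, 14485 ± 206 and 14639 ± 163 in the IL-10 non-phagocytic, Tconv-phagocytic and Treg-phagocytic groups. Every IFN-γ library lay above every IL-10 and M0 library, and every IFN-γ Treg-phagocytic library above every other library. Complexes I, III, IV and V followed this order of IFN-γ over IL-10 and M0. Complex II did not: its 4 genes summed to 456 ± 11.3 TPM in M0, 449 ± 20.6 in IFN-γ non-phagocytic and 445 ± 4.66 in IL-10 non-phagocytic macrophages, and these groups overlapped. For complex II this rests on the unscaled TPM: the log2 ratio of IFN-γ non-phagocytic to M0 sums was -0.02 as deposited, 0.16 with trimmed-mean scaling and 0.27 with median-of-ratios scaling.

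**Figure D1:**
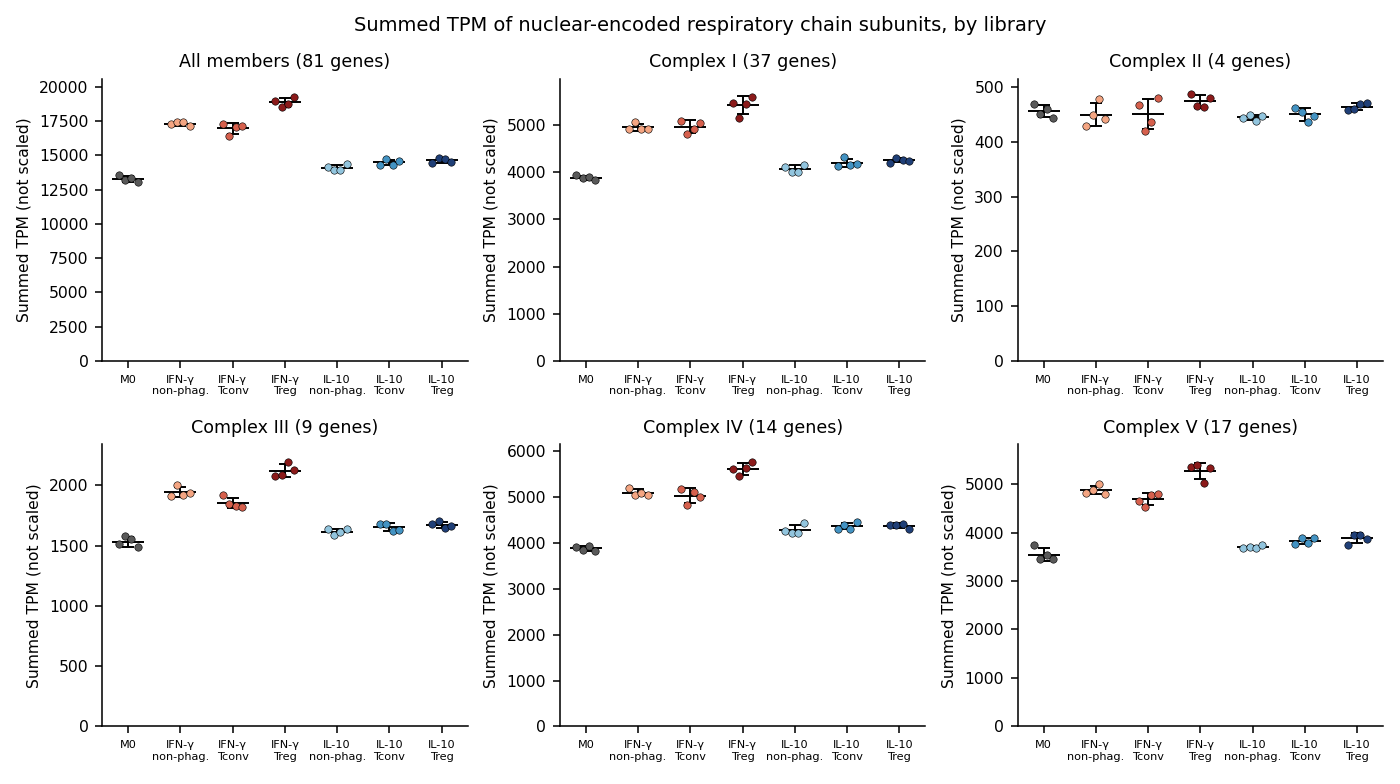
Summed TPM, not scaled, of all members and of each complex in every library (points) with the group mean and SD, by group on the horizontal axis. All 12 IFN-γ libraries sit above the IL-10 and M0 libraries for all members together, while complex II sits at 449 to 474 TPM under IFN-γ and 445 to 464 TPM elsewhere on average.

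A few members carried much of the total. Cox4i1, the ubiquitous form of subunit 4 of cytochrome oxidase, was the most abundant over all libraries (mean 1050 TPM), followed by Atp5e, the epsilon subunit of the ATP synthase stalk (752), Cox8a (639) and Cox6a1 (589), both small subunits of cytochrome oxidase. Uqcrh, the hinge protein of complex III, led its complex (457), with Uqcrq (281) and Uqcr10 (254). Ndufa6 (328), Ndufa7 (288) and Ndufa2 (272), accessory subunits, led complex I. Sdhb, the iron-sulphur subunit, led complex II (166) ahead of the membrane anchor Sdhd (104) and the flavoprotein Sdha (95.7).

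IFN-γ non-phagocytic macrophages were first set against M0. Of the 81 members, 56 were higher (background 23.8% of 13631 genes tested) and 9 lower (background 30.8%), 65 in all (background 54.6%), by limma with Benjamini-Hochberg adjusted p under 0.05. Fold changes here and below are differences of log2(scaled TPM + 1), where each library was divided by a trimmed-mean factor, while levels are TPM as deposited. The median over the members was 0.42, against -0.09 over all genes tested. The factors move that zero: the median of all genes was -0.24 without scaling and -0.00 with median-of-ratios scaling, and the members divided into 48 higher and 15 lower without scaling. Relative to all genes, the members' median stayed above in each of the 3.

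In complex I, 29 of 37 members were higher and 3 lower (median 0.53). Ndufa5, an accessory subunit of the matrix arm, stood at 39.0, 42.0, 40.3 and 36.2 TPM in M0 and at 88.8, 112, 104 and 77.2 in IFN-γ non-phagocytic libraries. The lowest IFN-γ library was well above the highest M0 library, and the rise was 1.43 ± 0.11 (SE, adjusted p = 8.74e-06). Ndufs3, a core subunit of the matrix arm, rose by 0.98 and Ndufb3, a membrane arm subunit, by 0.98. The abundant accessory subunits Ndufa6, Ndufa7 and Ndufa2 rose by 0.75, 0.45 and 0.81.

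The nuclear-encoded core subunits of complex I divided. Ndufs8 (0.80), Ndufv2 (0.55) and Ndufs7 (0.15) rose along with Ndufs3. With the trend with length and GC content removed, as described below, Ndufs7 was at 0.04 and no longer called by limma (adjusted p = 0.59). The other named risers kept their calls. Ndufs1, which holds iron-sulphur clusters on the electron path, stood at 36.2, 33.2, 36.4 and 34.0 TPM in M0 and 26.4, 27.8, 24.9 and 27.0 under IFN-γ, with no overlap. It fell by 0.21, and its call was lost under 6 of 17 alternative settings. Ndufv1, which binds NADH, was not called (0.14, adjusted p = 0.16). Ndufa10, an accessory subunit, fell furthest in the complex: 59.3, 54.3, 55.3 and 55.8 TPM in M0 became 21.6, 31.6, 30.6 and 36.4, a change of -0.72 ± 0.14 (SE, adjusted p = 0.0019).

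Complex II divided. Sdha, the flavoprotein that oxidises succinate, stood at 123, 120, 120 and 122 TPM in M0 and at 54.2, 59.2, 80.7 and 70.6 in IFN-γ non-phagocytic libraries. Its partner Sdhb stood at 148, 142, 141 and 134 TPM and at 203, 194, 199 and 182. Neither pair of groups overlapped, and the 2 genes moved in opposite directions: Sdha fell by 0.70 ± 0.11 (SE, adjusted p = 0.00063) and Sdhb rose by 0.64 ± 0.04 (SE, adjusted p = 4.01e-06). Of the membrane anchors, Sdhd rose by 0.33 and Sdhc was not called (-0.08, adjusted p = 0.24).

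In complex III, 4 of 9 members were higher and 1 lower (median 0.19). Uqcrh stood at 319, 296, 283 and 285 TPM in M0 and 599, 591, 601 and 547 under IFN-γ, with no overlap, and rose by 1.16 ± 0.04 (SE, adjusted p = 1.72e-07). Uqcrb, a small matrix-side subunit, rose by 1.08 and Uqcr10 by 0.54. Uqcrc1, a large core protein, went the other way: 128, 147, 138 and 135 TPM in M0 became 95.4, 87.7, 93.0 and 93.4. It fell by 0.38 ± 0.06 (SE, adjusted p = 0.00043). The electron-carrying subunits were not called, with 0.07 for Uqcrfs1, the Rieske protein (adjusted p = 0.3), and -0.18 for Cyc1, which reduces cytochrome c (adjusted p = 0.086). The second core protein Uqcrc2 was not called either (0.05, adjusted p = 0.72).

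Complex IV had 10 of 14 members higher and 2 lower (median 0.52). Cox4i1 stood at 912, 943, 962 and 956 TPM in M0 and 1131, 1043, 1091 and 1062 under IFN-γ and rose by 0.38, and Cox5a, its neighbour in the enzyme, rose by 0.92. Larger rises were those of Cox7b (1.20), Cox7c (1.01) and Cox6c (0.93). The isoforms of subunit 6a diverged. Cox6a1 stood at 474, 474, 477 and 495 TPM in M0 and 719, 684, 629 and 630 under IFN-γ, and Cox6a2 at 123, 122, 130 and 126 and then 58.0, 60.2, 58.2 and 64.5. Cox6a1 thus rose (0.65 ± 0.05 SE, adjusted p = 1.19e-05) and Cox6a2 fell (-0.86 ± 0.05 SE, adjusted p = 2.48e-06), with no overlap in either. Cox5b fell by 0.36. Cox6b1 rose by 0.86, Cox7a2 by 0.55, Cox7a2l by 0.41 and Cox8a by 0.49. The low members Cox6b2 (0.31, adjusted p = 0.74) and Cox7a1 (-1.04, adjusted p = 0.2) were not called, and each was listed at 0 in 2 of the 4 IFN-γ non-phagocytic libraries.

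In complex V, 11 of 17 members were higher and 2 lower (median 0.42). Atp5e stood at 513, 431, 432 and 431 TPM in M0 and 1006, 1039, 1089 and 1005 under IFN-γ. It rose by 1.38 ± 0.05 (SE, adjusted p = 2.1e-07), and Atp5mpl, a small membrane proteolipid, by 1.41. The 2 largest subunits of the catalytic head fell: Atp5b, the beta subunit that makes ATP, from 373, 371, 368 and 379 TPM to 238, 280, 292 and 224, and Atp5a1, the alpha subunit, from 274, 266, 269 and 269 to 188, 203, 205 and 181. The groups did not overlap, and the changes were -0.35 (adjusted p = 0.004) and -0.29 (adjusted p = 0.00037). The gamma subunit Atp5c1 in the centre of the head rose by 0.35. The 3 genes Atp5g1, Atp5g2 and Atp5g3 encode the same mature rotor subunit c, and only Atp5g3 passed the test in this comparison (0.90), while Atp5g1 gave -0.15 (adjusted p = 0.053) and Atp5g2 0.01 (adjusted p = 0.91). Atpif1, which inhibits the enzyme when it runs in reverse and is no member, rose by 0.62, from 346 ± 7.87 to 469 ± 31.0 TPM (SD, n = 4).

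**Figure D2:**
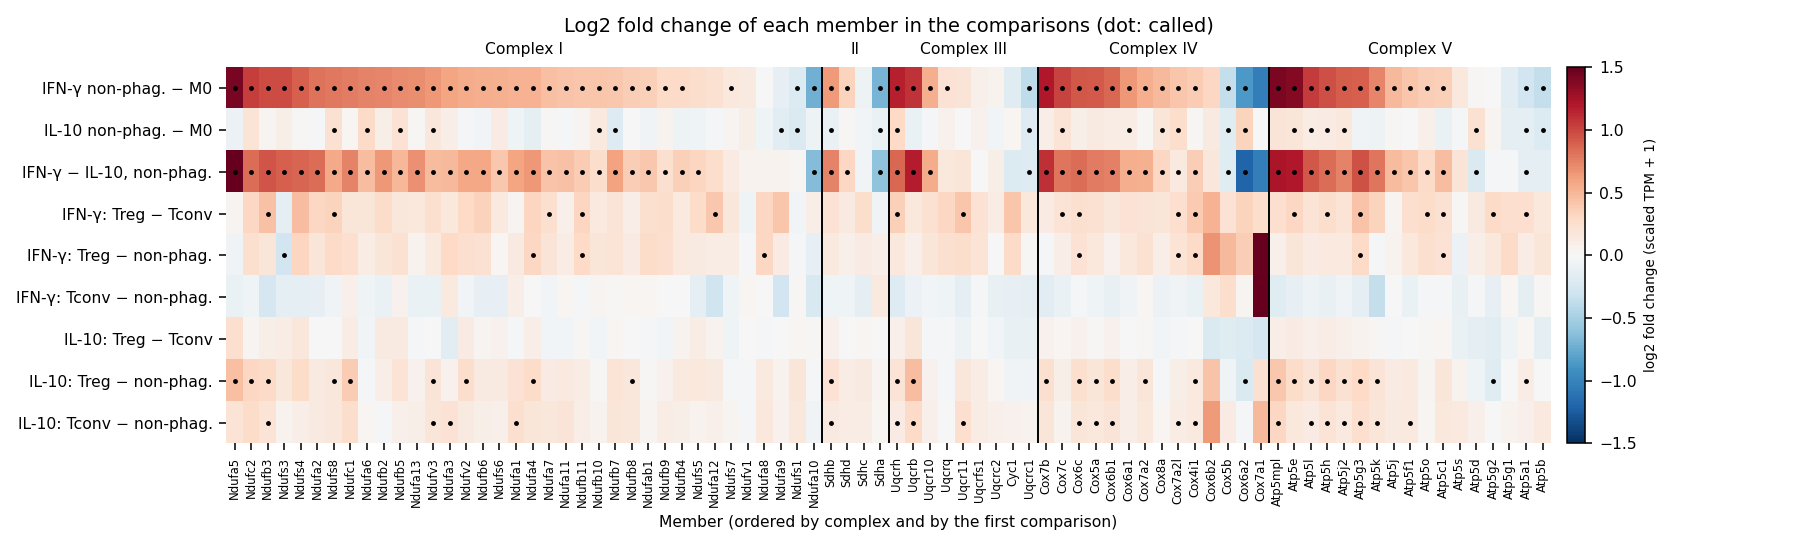
Log2 fold change (colour) of each member (columns, by complex) in each of the comparisons (rows); a dot marks an adjusted p under 0.05, and 1 member that is not reported was left out. The first row holds dots for most members, and the rows for Tconv-phagocytic against non-phagocytic macrophages under IFN-γ and for Treg- against Tconv-phagocytic macrophages under IL-10 hold no dot.

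**Figure D3:**
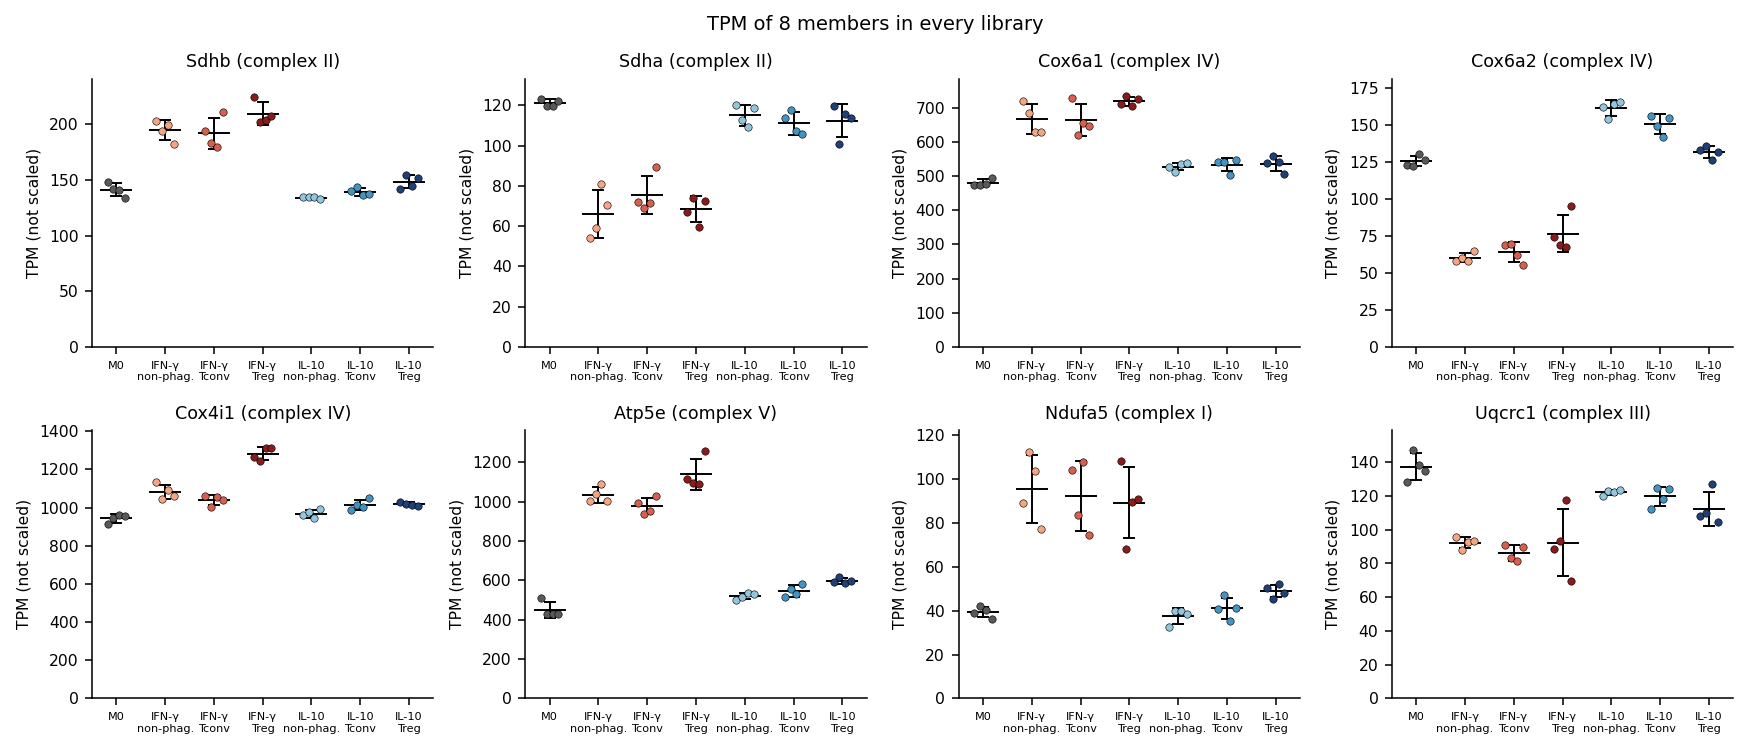
TPM, not scaled, of 8 members in every library (points) by group, with the group mean and SD. Sdha and Sdhb, and Cox6a1 and Cox6a2, move in opposite directions between M0 and the IFN-γ groups.

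Of the 9 members that fell, 7 had transcripts over 1000 nt. Across the 81 members the change under IFN-γ went with coding length (Spearman rho -0.51) and transcript length (-0.42), less with GC content (-0.205), and it rose with mean TPM (0.35). These are descriptions across genes of the same libraries, which are not independent. The pattern extended beyond the members. Among all genes with transcripts up to 1000 nt, the median change was 0.34 (2285 genes, 34.4% higher and 7.53% lower), and above 1000 nt it was -0.16 (11328 genes, 21.6% and 35.5%). Members up to 1000 nt had a median of 0.53 (51 genes, 41 higher and 2 lower) and longer members 0.19 (30 genes, 15 and 7), both above all genes of their class. The median transcript length was 763 nt for members and 2461 nt for all genes tested. When the trend with length and GC content over all genes was removed, 48 members were higher and 11 lower with a median of 0.23. The median was then 0.23 in complex I, 0.15 in II, -0.05 in III, 0.27 in IV and 0.33 in V. Sdha and Sdhb, Cox6a1 and Cox6a2, Atp5a1 and Atp5b kept their direction and calls. Others did not keep theirs: Ndufa4 was no longer called (0.04), and Atp5g2 was called lower (-0.28, adjusted p = 0.0067 by limma).

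**Figure D4:**
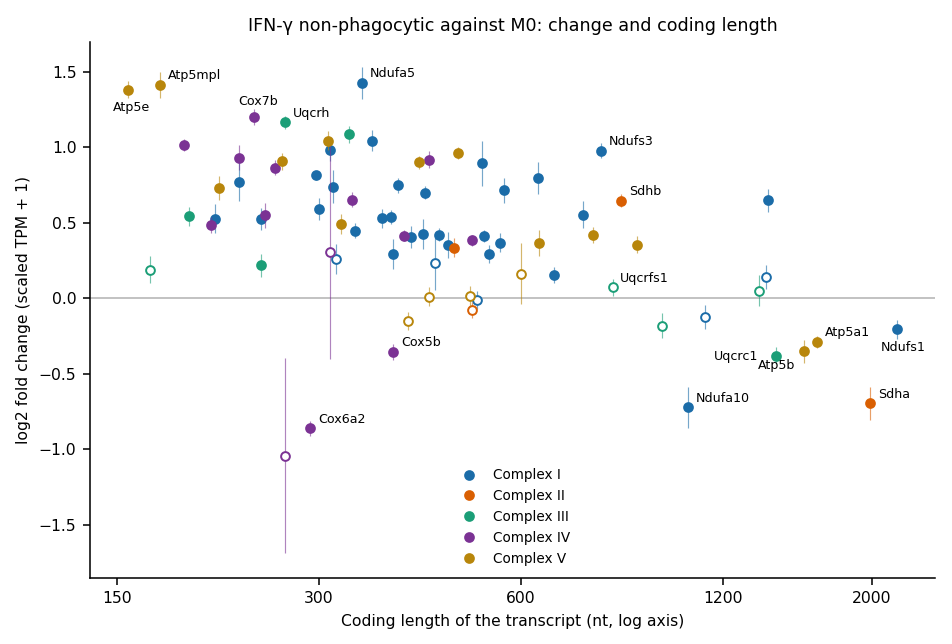
Log2 fold change of each member in IFN-γ non-phagocytic macrophages against M0 (vertical axis) and coding length in nucleotides (horizontal log axis), coloured by complex, with filled points for called members, and 1 member left out. Short members lie mostly above 0, and the members that fell, such as Sdha, Atp5b and Ndufs1, lie mostly to the right.

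Against IL-10 instead of M0, IFN-γ non-phagocytic macrophages gave a like division, with the IFN-γ libraries shared between both comparisons. Here 55 members were higher (background 22.9%) and 8 lower (background 29.7%), 63 in all (background 52.7%), with a median of 0.43 against -0.08 for all genes. Without scaling the count was 44 higher and 16 lower. Complex I had 29 members higher and 2 lower, complex II 2 and 1, complex III 3 and 1, complex IV 10 and 2, and complex V 11 and 2. The largest rises were those of Ndufa5 (1.52), Atp5mpl (1.22) and Atp5e (1.20), and the largest falls those of Cox6a2 (-1.20), Ndufa10 (-0.65) and Sdha (-0.60). Cox7a2l, called higher by 0.15, was at -0.06 without scaling and at -0.01 with the length and GC trend removed, and Atp5a1, called lower by 0.14, was at 0.02 with that trend removed.

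Changes with IL-10 were smaller. In IL-10 non-phagocytic macrophages against M0, whose libraries are also the controls of the first comparison, 17 members were higher (background 13.2%) and 9 lower (background 13.5%), 26 in all (background 26.7%), with a median of 0.02 against -0.00 for all genes. Without scaling 18 were higher and 5 lower, with median-of-ratios scaling 18 and 6, and with the length and GC trend removed 9 and 12. Cox6a2 rose most: 123, 122, 130 and 126 TPM in M0 against 162, 154, 164 and 166, a rise of 0.34 ± 0.03 (SE, adjusted p = 0.00014) with no overlap. It was thus higher with IL-10 and lower with IFN-γ than in M0. Uqcrh (0.30), Ndufa6 (0.28) and Cox7a2l (0.26) also rose, and Ndufs1 (-0.22), Atp5b (-0.20), Ndufb7 (-0.19), Uqcrc1 (-0.19) and Atp5a1 (-0.15) fell. The count of 26 fell whichever of the 8 libraries was left out, to between 14 and 22. It was 14, 15 or 16 without M0 replicate 2, 3 or 4, and 17, 14 or 17 without IL-10 non-phagocytic replicate 2, 3 or 4. It was 8 with all 28 libraries in 1 model of equal variance and 11 with no filter on low values. Cox6a2, Uqcrh, Ndufa6, Cox7a2l and Atp5a1, 5 of 14 members named by rule, kept their calls in all 17 alternatives run.

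The question of which prey was eaten was addressed by setting Treg-phagocytic against Tconv-phagocytic macrophages. Under IFN-γ, 18 members were higher after Treg uptake (background 3.92%) and 0 lower (background 7.86%), or 18 in all (background 11.8%). The median was 0.23, against 0.01 for all genes, and 77 of 81 members had a value above 0. The 18 were spread over complexes I (5), III (2), IV (4) and V (7), with 0 in complex II. Without scaling the count was 9 higher and 1 lower, and it was 9, 10 and 11 without Tconv BV421-2, Tconv Ax647-1 or Treg BV421-2. It was 29 with median-of-ratios scaling and 47 with all 28 libraries in 1 model of equal variance.

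Cox4i1 stood at 1059, 1003, 1056 and 1042 TPM after Tconv uptake and at 1263, 1244, 1312 and 1312 after Treg uptake. The 2 groups were clearly apart, and Cox4i1 rose by 0.39 ± 0.04 (SE, adjusted p = 0.0016). Atp5g3 stood at 316, 302, 318 and 340 TPM and at 390, 441, 393 and 390, a rise of 0.43 ± 0.06 (SE, adjusted p = 0.0044). Uqcr11, a small subunit of complex III, stood at 204, 177, 198 and 210 TPM and at 234, 238, 271 and 242, a rise of 0.41 ± 0.07 (SE, adjusted p = 0.01). All Treg libraries lay above all Tconv libraries for both genes. Cox7a2l rose by 0.26. These 4 kept their calls in all 18 alternatives run. Ndufb3 (0.44), Ndufa12 (0.41) and Uqcrh (0.35) rose too. Among the catalytic subunits Atp5a1 rose by 0.25, while Atp5b (0.16, adjusted p = 0.22), Sdha (-0.05, adjusted p = 0.84), Sdhb (0.22, adjusted p = 0.065), Ndufs1 (-0.04, adjusted p = 0.89) and Cyc1 (0.41, adjusted p = 0.12) were not called.

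Other transcripts moved in the same libraries. Of 76 cytosolic ribosomal protein genes, 70 were higher after Treg uptake under IFN-γ (background 3.92%) and 0 lower (background 7.86%). Their median was 0.27, close to that of the members. The 8 macrophage markers summed to 16527 to 18860 TPM after Tconv uptake and 20778 to 21299 after Treg uptake, with no overlap. The 5 IFN-γ response genes had 0 higher and 4 lower. Of 16 T cell markers 2 were higher, with summed levels of 704 to 876 TPM after Tconv uptake and 700 to 1070 after Treg uptake, and 0 of the 16 were at 0 in a group. The 5 Treg markers summed to 49.0 to 64.6 TPM after Tconv uptake and 40.2 to 62.8 after Treg uptake. Their sums thus did not tell the 2 kinds of prey apart under IFN-γ. The relative depth of the Treg libraries was 11.3% to 19.7%, below the 20.3% to 23.7% of the Tconv libraries. The part of these differences in the result was not tested.

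Each kind of prey was also set against the non-phagocytic cells under the same cytokine. After Treg uptake under IFN-γ, 8 members were higher (background 2.27%) and 1 lower (background 5.88%), 9 in all (background 8.15%), with a median of 0.16. The risers were Ndufa8 (0.31), Ndufa4 (0.31), Ndufb11 (0.29), Cox4i1 (0.29), Atp5g3 (0.28), Cox6c (0.22), Atp5c1 (0.22) and Cox7a2l (0.21). Ndufs3 was the exception: 132, 131, 123 and 126 TPM in non-phagocytic libraries against 104, 94.1, 103 and 108 in Treg-phagocytic ones, a fall of 0.28 ± 0.06 (SE, adjusted p = 0.025) with no overlap. The count of 9 dropped to 3 without non-phagocytic replicate 1 and to 5 without non-phagocytic replicate 4, Treg Ax647-1 or Treg BV421-1, and it was 36 with all 28 libraries in 1 model of equal variance. Of 7 members named by rule, 0 kept their call in all 17 alternatives run. Among these was a fit with library numbers as blocks, which called 0 members, so no member could be kept in all. After Tconv uptake under IFN-γ, 0 of 81 members were called by limma (background 0.00734%, 1 gene of 13631), with a median of -0.06. At an unadjusted p under 0.05 there were 13 members and 860 genes, and with all 28 libraries in 1 model 1 member was called. Both comparisons share the non-phagocytic libraries.

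Under IL-10 the prey made no difference that the test could call. Treg- against Tconv-phagocytic macrophages gave 0 members higher (background 0.411%) and 0 lower (background 0.968%) by limma (1.38% of genes called in all), with a median of 0.00. At an unadjusted p under 0.05 there were 18 members and 1945 genes. Weighting the variance by group in a model of all libraries called 2 members, and leaving out Tconv Ax647-1 called 3. Cox4i1 stood at 985, 1015, 1004 and 1051 TPM after Tconv uptake and 1031, 1017, 1011 and 1009 after Treg uptake, overlapping throughout.

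Uptake itself went with small rises under IL-10. After Treg uptake 26 members were higher than in non-phagocytic cells (background 6.43%) and 2 lower (background 4.67%), 28 in all (background 11.1%), with a median of 0.14. Uqcrb stood at 132, 146, 132 and 134 TPM in non-phagocytic and 180, 191, 176 and 169 in Treg-phagocytic libraries. The groups were apart and Uqcrb rose by 0.47 ± 0.05 (SE, adjusted p = 0.00086). Ndufa5 (0.45) and Atp5mpl (0.41) followed. Cox6a2 fell, from 162, 154, 164 and 166 TPM to 133, 136, 126 and 131 (-0.22 ± 0.03 SE, adjusted p = 0.0053), and Atp5g2 fell by 0.18. Without scaling the Treg count was 15 higher and 3 lower with a median of 0.067, and with all 28 libraries in 1 model of equal variance it was 18. Of 13 members named by rule, 0 kept their call in all 17 alternatives run, among them a fit with library numbers as blocks that called only 2 members. After Tconv uptake 20 members were higher (background 4.41%) and 0 lower (background 1.7%), against 6.11% of genes called in all, with a median of 0.12, led by Atp5mpl (0.31), Uqcrb (0.28), Atp5g3 (0.25) and Uqcr11 (0.25), of which the groups overlapped for Uqcrb. Without scaling the Tconv count was 2, with all libraries in 1 model of equal variance 4, and it was 10, 8, 10, 10 and 11 without non-phagocytic replicate 2 or 3 or Tconv BV421-1, BV421-2 or Ax647-2. Of 8 members named by rule, 0 kept their call in all 17 alternatives, where the fit with library numbers as blocks called only 1 member. The IL-10 non-phagocytic libraries are shared by both. All 16 T cell markers were higher after Treg uptake and 7 of 16 after Tconv uptake, with sums of 185 to 197 TPM in non-phagocytic, 213 to 258 in Tconv-phagocytic and 306 to 331 in Treg-phagocytic libraries. The fibroblast list of 5 genes summed to 38.8 to 45.2, 70.1 to 76.2 and 12.8 to 15.99 TPM. The part of these transcripts in the rises was not tested.

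**Figure D5:**
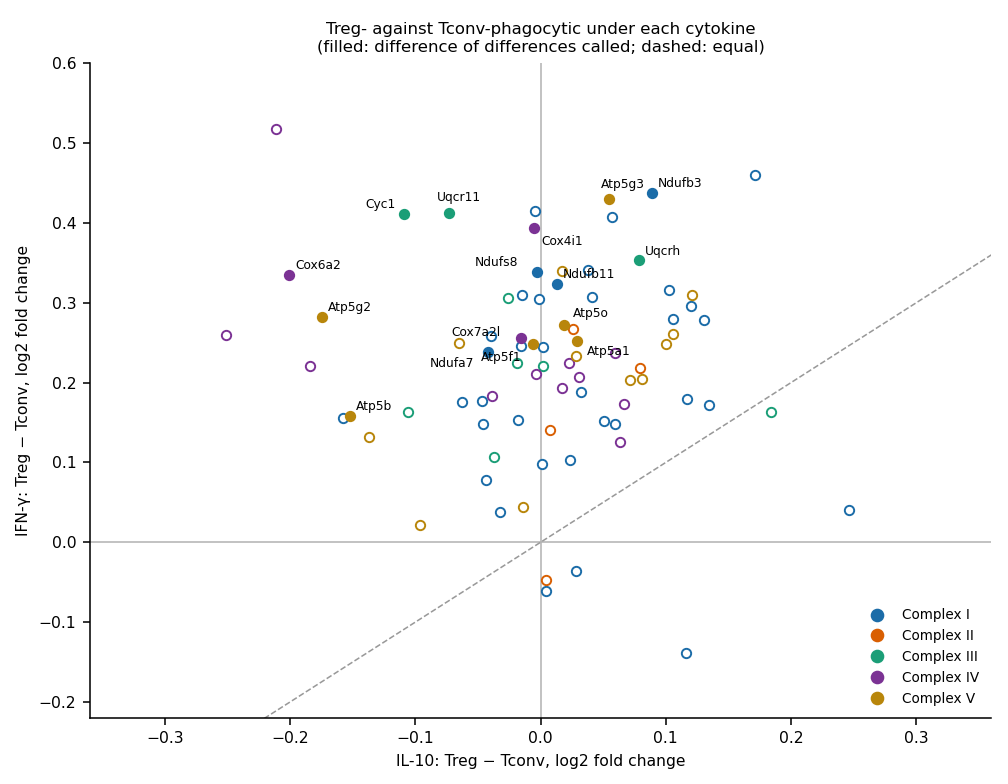
Log2 fold change of Treg- against Tconv-phagocytic macrophages for each member under IL-10 (horizontal axis) and IFN-γ (vertical axis), coloured by complex; filled points differ between the cytokines at an adjusted p under 0.05, and the dashed line marks equal change, with 1 member left out. All 16 filled points lie above the line, Cox6a2, Cyc1 and Uqcr11 among them.

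The dependence of the prey effect on the cytokine was tested directly, as a difference of differences. For Treg against Tconv, the change under IFN-γ minus that under IL-10 was called above 0 for 16 members (background 4.99%) and below 0 for 0 (background 8.28%), against 13.3% of genes in all, with a median difference of 0.22. Without scaling the division was 7 and 1, and 25 were called with 1 variance for all libraries. Cox6a2 (0.54), Cyc1 (0.52), Uqcr11 (0.49), Atp5g2 (0.46) and Cox4i1 (0.40) differed most. Atp5g2, Atp5g3, Cox4i1, Cox7a2l, Uqcr11 and Uqcrh kept the call in all 26 alternatives run. Cyc1 is an example of opposite values: 0.41 for Treg against Tconv under IFN-γ and -0.11 under IL-10, neither called alone.

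For Treg-phagocytic against non-phagocytic cells 3 members differed upwards (background 2.46%) and 2 downwards (background 6.69%), 5 in all (background 9.15%). These are signed differences, the change under IFN-γ minus that under IL-10. They were 0.59 for Cox6a2 (0.37 and -0.22), 0.56 for Cox5b (0.49 and -0.07), 0.34 for Atp5g2 (0.16 and -0.18), -0.39 for Uqcrb (0.08 and 0.47) and -0.45 for Ndufs3 (-0.28 and 0.17). The values had opposite signs under the 2 cytokines for all but Uqcrb, but in no case were both values called. Cox6a2 and Atp5g2 were called under IL-10 alone, Ndufs3 under IFN-γ alone and Cox5b under neither. Ndufs3 kept its call in all 25 alternatives. Without scaling the division was 5 and 1. The count of 5 was 9 without IFN-γ Treg Ax647-1, 2 without IL-10 non-phagocytic replicate 1 or 4, and 3 without IL-10 non-phagocytic replicate 3 or IL-10 Treg BV421-2. For Tconv-phagocytic against non-phagocytic cells 0 members differed upwards (background 0.205%) and 8 downwards (background 1.43%), against 1.64% of genes in all, among them Atp5mpl (-0.48), Ndufb3 (-0.46), Atp5g3 (-0.40) and Cox4i1 (-0.26). That count was 1 without scaling and 5 without IFN-γ Tconv BV421-2 or Ax647-1, IL-10 non-phagocytic replicate 2 or 4, or IL-10 Tconv BV421-2 or Ax647-1, and 0 of the 8 kept their call in all 25 alternatives. Among these, the fit with library numbers as blocks called 0 members, so none could be kept in all. The median of all genes was -0.01 with scaling and 0.11 without it.

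Other genes of the pathway were also tested under IFN-γ against M0, where 23.8% of all genes were higher and 30.8% lower. Of 50 tested assembly factors 13 were higher and 12 lower in IFN-γ non-phagocytic macrophages against M0 (median -0.05), with Cox17, a copper chaperone for cytochrome oxidase, at 0.78, Cox19 at 1.57 and Coa3, a cytochrome oxidase assembly factor, at -0.61. Of 78 mitochondrial ribosomal protein genes 24 were higher and 10 lower (median 0.03). By contrast 75 of 76 cytosolic ribosomal protein genes were higher (median 0.69). The part of transcript length in this contrast was not tested. Of 17 tested regulators 3 were higher and 2 lower. Nrf1 (-0.08), Gabpa (0.17) and Yy1 (0.13), which encode factors that bind the searched motifs, were not called, and neither were Tfam, the mitochondrial DNA packaging factor (-0.04), or Esrra (-0.08). Ppargc1b, a coactivator of respiratory genes, rose by 0.61, Hif1a by 0.54, and Myc fell by 0.82.

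Of the 13 subunits encoded by mitochondrial DNA 5 were higher and 6 lower under IFN-γ. For these and the next lists the background was 23.8% higher and 30.8% lower. mt-Co2, the second subunit of cytochrome oxidase, went from 3748 ± 681 to 17724 ± 2065 TPM (SD, n = 4), a change of 2.44, and mt-Nd3 from 570 ± 147 to 197 ± 94.8 TPM, a change of -1.43. Among 12 tested carriers and coenzyme Q genes 2 were higher and 3 lower, with Cycs, cytochrome c, at 0.53, Coq8a at 1.69 and Coq4 at -1.33. Of 7 tested genes of uncoupling and alternative routes 5 were higher and 1 lower. Ckmt1, mitochondrial creatine kinase, rose from 2.00 ± 0.72 to 29.8 ± 0.99 TPM (3.54), and Ucp2, an inner membrane carrier, fell from 985 ± 29.3 to 392 ± 21.7 TPM (-1.14).

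With IL-10 against M0, Hif1a (1.45) and Coq8a (0.83) rose and Myc (-1.51) and mt-Nd3 (-0.90) fell. After Treg against Tconv uptake under IFN-γ, Higd1a, which associates with respiratory supercomplexes (0.68), Coa3 (0.61) and Slc25a4, the ADP/ATP carrier (0.35), rose, and mt-Nd4l (-0.94), Perm1 (-0.72) and Hif1a (-0.69) fell. Hif1a had a mean of 44.5 ± 5.72 TPM after Tconv uptake and 25.4 ± 2.89 after Treg uptake. In the same groups the 13 subunits encoded by mitochondrial DNA summed to 57643 to 61909 TPM (Tconv) and 53433 to 54378 (Treg). These sums did not overlap, and they differed in the opposite direction to the summed TPM of the nuclear members. After Treg uptake under IL-10, mt-Atp6 (1.10) and Ckmt1 (0.89) were higher than in non-phagocytic cells. Atpif1 rose in both IL-10 uptake groups (0.24 after Treg and 0.23 after Tconv uptake) and gave 0.23 (adjusted p = 0.135) for Treg against Tconv under IFN-γ.

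T cell transcripts moved with IFN-γ as well. Of 16 T cell markers 14 were higher (background 23.8%) and 1 lower (background 30.8%) in IFN-γ non-phagocytic macrophages against M0. Their sums were 213 to 317 TPM in M0 and 597 to 972 under IFN-γ. The 5 Treg markers summed to 4.23 to 11.5 and 42.5 to 72.9 TPM, and the 5 fibroblast markers to 55.0 to 65.2 and 1.73 to 3.74 TPM. The part of these cells' RNA in the members' changes was not tested.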

How the data were processed

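The authors deposited 1 TPM column per library for 55487 Ensembl gene identifiers, and the values sum to 1000000 per library. The submitters' processing notes name STAR, RSEM and mm10, with no versions, strand setting or roles. TPM is already divided by transcript length and library total. The members and all gene and marker lists were chosen with earlier results of these data known.

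Symbols and biotypes came from GENCODE on mm10. Each library was divided by an unweighted trimmed-mean factor (30% of ratios and 5% of levels trimmed). The 13631 genes reaching 1 TPM in 4 or more libraries entered the test on log2(TPM/factor + 1) with limma 3.58.1 (R 4.3.3, trended prior), only the groups compared entering each fit. P-values were Benjamini-Hochberg adjusted over all 13631 genes and called under 0.05. The pseudocount of 1 understates changes of low genes. The 3 differences of differences used the matching groups of both cytokines. Named were, per complex, the 3 most abundant members, per comparison the largest called changes without overlap, catalytic subunits and isoform pairs. The code was tested on simulated data. Same-numbered libraries correlated between -0.026 and 0.086. The numbers were taken as names only, although in some comparisons the same number was the best match for 3 of 4 libraries. No 2 libraries were identical. The values of 1 member are not reported here and its point is left out of the figures, while counts and medians include it. Python 3.11.15 with pandas 2.3.3 read the files.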

Additional observations from a re-analysis of the deposited data

Results flagged for a closer look

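In 17 of 175 groups of 4 checked, 1 library lay apart from the other 3, with a gap over the group's whole range above Dixon's critical value. Chance gives such a gap in about 1 group in 20. Values in brackets are this ratio. Among summed levels, IFN-γ non-phagocytic replicate 2 was high for complex I (0.904), IFN-γ Treg BV421-1 low for complex V (0.833) and IL-10 non-phagocytic replicate 4 high for complex V (0.837). The clearest case was Atp5e in M0 (0.986), at 513 TPM in replicate 1 against 431 to 432 in the others. In IFN-γ Treg libraries, Atp5e was high in BV421-2 (0.833), and Atp5g2 (0.839) and Atp5g3 (0.929) were both high in Ax647-2. Sdha was high in IFN-γ Tconv Ax647-2 (0.838). Cyc1 was high in IFN-γ non-phagocytic replicate 4 (0.877). Cox6a1 was high in M0 replicate 4 (0.864). In IL-10 Tconv libraries, Cox6a1 was low in Ax647-1 (0.842), Ndufs3 high in Ax647-2 (0.854), Cyc1 high in BV421-1 (0.859) and Atp5b low in BV421-1 (0.889). In IL-10 Treg libraries, Uqcrh was low in BV421-2 (0.912), Atp5g3 high in BV421-1 (0.858) and Cox7a2l low in Ax647-1 (0.831).

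Changes that differed between the cytokines by limma were 16, 5 and 8 members in the 3 differences of differences. For Treg against Tconv, the change under IFN-γ exceeded that under IL-10 by 0.54 (Cox6a2), 0.52 (Cyc1), 0.49 (Uqcr11), 0.46 (Atp5g2), 0.40 (Cox4i1), 0.38 (Atp5g3), 0.35 (Ndufb3), 0.34 (Ndufs8), 0.31 (Atp5b), 0.31 (Ndufb11), 0.28 (Ndufa7), 0.27 (Uqcrh), 0.27 (Cox7a2l), 0.25 (Atp5f1), 0.25 (Atp5o) and 0.22 (Atp5a1). For Treg against non-phagocytic cells the differences were 0.59 (Cox6a2), 0.56 (Cox5b), 0.34 (Atp5g2), -0.39 (Uqcrb) and -0.45 (Ndufs3). For Tconv against non-phagocytic cells they were -0.22 (Atp5a1), -0.26 (Cox4i1), -0.28 (Atp5e), -0.32 (Atp5h), -0.32 (Uqcrh), -0.40 (Atp5g3), -0.46 (Ndufb3) and -0.48 (Atp5mpl). The 2 comparisons with non-phagocytic cells share those libraries.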

How the results depend on the processing

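Counts below are members called, and medians are log2 fold changes over members, each in the order in which its comparisons are named. Without scaling the medians were 0.24 (IFN-γ non-phagocytic against M0), 0.043 (IL-10 against M0), 0.22 (IFN-γ against IL-10), 0.13 (Treg against Tconv, IFN-γ), 0.11 (Treg against non-phagocytic, IFN-γ), 0.067 and 0.034 (Treg and Tconv against non-phagocytic, IL-10). The counts without scaling were 10 for Treg against Tconv under IFN-γ, 18 and 2 for Treg and Tconv uptake under IL-10, and 8 and 1 for the differences between cytokines in Treg against Tconv and in Tconv against non-phagocytic cells. Cox7a2l was at -0.059 for IFN-γ against IL-10. Median-of-ratios scaling gave medians of 0.528 for IFN-γ against M0 and 0.525 against IL-10, and 29 calls for Treg against Tconv under IFN-γ. A pseudocount of 5 gave a median of 0.41 for IFN-γ against M0. With the length and GC trend removed the medians were 0.23 (IFN-γ against M0), -0.018 (IL-10 against M0, reversed), 0.22 (IFN-γ against IL-10), 0.12 and 0.086 (Treg and Tconv uptake, IL-10), the last with 10 calls. In IFN-γ against IL-10 this setting put Atp5a1 at 0.017 and Cox7a2l at -0.0098. With no filter on low values the counts were 11 (IL-10 against M0), 9 (Treg against Tconv, IFN-γ), 5 (Treg against non-phagocytic, IFN-γ), 9 (Tconv against non-phagocytic, IL-10) and 2 (the difference between cytokines in Treg against non-phagocytic). One model of all 28 libraries with 1 variance per gene gave 8 (IL-10 against M0), 47 (Treg against Tconv), 36 and 1 (Treg and Tconv against non-phagocytic) under IFN-γ, 18 and 4 under IL-10, and 25 for the difference in Treg against Tconv. With a variance weight per group the counts were 2 (Treg against Tconv) and 34 (Tconv against non-phagocytic), both under IL-10. The cause was not tested.

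Same-numbered libraries correlated weakly in their deviations from the group mean (-0.026 to 0.086). The same number was the best match for 3 of 4 libraries in IFN-γ and in IL-10 against M0. It was the best match for 2 of 4 in IFN-γ against IL-10. In Treg against Tconv the number was 3 (titles) or 1 (library names) under IFN-γ and 0 under IL-10. Whether the numbers mark pairs was not tested. With the replicate block, the counts were 7 (numbers of the titles) or 9 (numbers of the library names) for Treg against Tconv under IFN-γ, 0 for Treg against non-phagocytic under IFN-γ, 2 and 1 for Treg and Tconv uptake under IL-10, and 1 and 0 for the 2 differences against non-phagocytic cells. In the comparisons with non-phagocytic cells the block used the number without the dye. Uptake libraries of different dyes then shared a number, and some non-phagocytic libraries had no uptake partner. The labels do not give this pairing, so the low counts there do not show how stable the calls are. In IFN-γ against M0, where every number had a partner, 61 members were called with the block.

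The log2 ratio of summed TPM, IFN-γ non-phagocytic to M0, with trimmed-mean and median-of-ratios scaling was 0.53 and 0.64 (complex I), 0.16 and 0.27 (complex II, reversed against the unscaled sums), 0.53 and 0.63 (III), 0.58 and 0.68 (IV) and 0.65 and 0.75 (V). Without its most abundant member it was -0.30 (II), 0.13 (III), 0.45 (IV) and 0.31 (V).

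Leaving out 1 library at a time, the count ranged from 62 to 65 for IFN-γ against M0 (median 0.43 to 0.47), 14 to 22 for IL-10 against M0 (0.0087 to 0.0304), 59 to 64 for IFN-γ against IL-10 (0.42 to 0.46), 9 to 22 for Treg against Tconv, 3 to 7 for Treg and 0 to 0 for Tconv against non-phagocytic under IFN-γ, 0 to 3, 21 to 32 and 8 to 15 for the same under IL-10, and 11 to 23, 2 to 9 and 5 to 12 for the differences between cytokines. The IFN-γ libraries had at most 23.7% of the depth of the deepest library, and the part of depth in these counts was not tested. Of 2261 alternative values of single named genes, 1847 kept direction and call, 411 were no longer called and 3 reversed.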
